A study of Mus musculus with 28 samples.

Results

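The 5 genes that encode the subunits of the IL-12 cytokine family, Il12a, Il12b, Il23a, Il27 and Ebi3, were followed in murine bone marrow-derived macrophages (BMDMs) exposed to von Willebrand factor (VWF) or to bacterial lipopolysaccharide (LPS). They were taken from the count table by symbol, through the GRCm38 GENCODE annotation, and all 5 of them were found among the 54532 genes listed. RNA sequencing had been done on 28 cultures. Control cultures received PBS (5 cultures at 3.5 h and 5 at 16 h), VWF cultures received 10 µg/ml of VWF purified from plasma (pd-VWF; 5 and 5), and LPS cultures received 100 ng/ml of LPS (4 and 4). Every culture, the controls included, was grown with the macrophage growth factor M-CSF and was kept in medium with calcium chloride during the incubation. The study's methods describe the murine donors as C57/B6JB mice of 8 to 12 weeks, but elsewhere give a younger age range for all murine experiments. No genetic change is given for any group. BMDMs are macrophages made in culture from marrow cells, so each RNA sample is a bulk of 1 well, and the labels call the cultures biological replicates without saying which mouse or marrow pool each came from.

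IL-12 family cytokines are secreted pairs of an alpha chain and a beta chain. The p40 chain, encoded by Il12b, pairs with p35 (Il12a) to give IL-12 and with p19 (Il23a) to give IL-23. The chain encoded by Ebi3 pairs with p28 (Il27) to give IL-27 and with p35 to give IL-35. Macrophages and dendritic cells are main producers of IL-12, IL-23 and IL-27 after contact with microbial products, whereas IL-35 is known mainly from regulatory T and B cells. IL-12 is known for driving interferon-gamma production by T and NK cells, IL-23 for sustaining IL-17-producing T cells, and IL-27 and IL-35 largely for restraining T cell responses. Both chains of IL-12 have to be made in the same cell for it to be released, and free p40 can be secreted alone.

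The cultures held between 41131209 and 77699206 counts each (median 52986574), and the floor of 3 counts over a group lay between 0.00906 and 0.0192 CPM, that is, counts scaled to library size. CPM values also carry TMM factors, which correct for a few very abundant RNAs and lay between 0.735 and 0.848 in LPS cultures against 0.945 to 1.18 in control cultures. The 8 macrophage markers fixed as a list were all detected in every group. Their summed level was 5862 CPM in control replicate 5 at 16 h against 15005 to 17313 CPM in the other 4 control cultures, and this culture also had the lowest TMM factor among controls. It was also lower in LPS replicate 4 at 16 h (9937 CPM against 14419 to 14684 CPM) and in LPS replicate 1 at 3.5 h (8771 CPM against 13498 to 14092 CPM). Replicate 1 was also the lowest at 3.5 h among controls (9666 CPM against 12432 to 14168 CPM) and VWF cultures (11791 CPM against 13904 to 15011 CPM). Of the 7 dendritic cell markers, which matter here because dendritic cells also make IL-12, the summed level was 1.38 to 2.10 CPM in controls at 3.5 h, 13.8 to 19.5 CPM with VWF and 22 to 27.4 CPM with LPS. At 16 h it was 0.729 to 2.30 CPM, 1.13 to 3.11 CPM and 14.3 to 31.8 CPM, so it was high in the same groups as the Il12b and Il27 levels given with those genes, and its part in them was not tested. Xcr1 made up most of it (12.7 CPM on average with VWF and 22.6 CPM with LPS at 3.5 h, and 20.1 CPM with LPS at 16 h). Zbtb46 averaged 0.988 CPM in controls at 3.5 h, 2.91 CPM with VWF and 1.66 CPM with LPS, and Clec9a averaged 1.11 CPM with LPS at 16 h and at most 0.0776 CPM in any other group. The other 4, Flt3, Cd209a, Siglech and Dpp4, averaged at most 0.350 CPM in any group, and none of the 7 was at 0 in a whole group.

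Il12b, the shared p40 gene (chr11:44400063-44414033 on the plus strand), was nearly silent in control cultures and was the subunit gene with the largest response to VWF. At 3.5 h it stood at 0.0880, 0.0388, 0.0460, 0.0134 and 0.0417 CPM in the 5 control cultures, from 1 to 5 counts each. With VWF it stood at 89.8, 80.2, 88.4, 116 and 171 CPM (109 ± 37.0, SD, n = 5), and with LPS at 22.7, 43.4, 48.4 and 38.5 CPM (38.3 ± 11.1, n = 4). All 5 VWF cultures were above all 4 LPS cultures, and both sets were far above every control.

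The rise of Il12b at 3.5 h was 11.23 on the log2 scale with VWF (SE 0.37, adjusted p = 2.69e-09) and 9.70 with LPS (SE 0.35, adjusted p = 1.51e-09) in edgeR's quasi-likelihood test. The direct comparison placed VWF above LPS by a log2 fold change of 1.53 (SE 0.27, adjusted p = 0.000851). Replicate 5 was the highest VWF culture, and without it the difference was 1.30 (adjusted p = 0.000645). LPS replicate 1, with low macrophage markers, was the lowest LPS culture, and without it the difference was 1.35 (adjusted p = 0.00205). The VWF and LPS comparisons with control share the same 5 control cultures, so their values stand side by side and are not independent. In bulk RNA, more cells expressing a gene and more RNA per cell cannot be told apart.

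At 16 h most of the Il12b signal had gone in VWF cultures and part of it remained in LPS cultures. The levels were 0.0404, 0.0588, 0.0171, 0.0651 and 0 CPM in controls, 0.739, 0.686, 1.43, 0.106 and 0.549 CPM with VWF, and 10.8, 7.20, 18.3 and 1.51 CPM with LPS. The 3 sets did not overlap, and the lowest LPS culture, replicate 4, was just above the highest VWF culture. LPS replicate 4 and VWF replicate 4 were the lowest of their groups for Il12b and also had the lowest summed macrophage markers of their groups (18739 CPM in VWF replicate 4). The part of this in the Il12b values was not tested.

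LPS kept Il12b above control at 16 h by a log2 fold change of 7.90 (SE 0.85, adjusted p = 3.87e-05), and VWF stood below LPS (log2 fold change -3.74, SE 0.75, adjusted p = 0.00168). Without LPS replicate 4 this difference was -4.09, and the LPS effect was 8.25. With VWF the gene did not reach the 10 TPM (transcripts scaled by length and library size) required for the main test, nor the count minimum of edgeR's filterByExpr. In a fit with no filter, which called 5.21% of the genes tested, VWF raised it by 4.20 (SE 0.73, adjusted p = 0.00119). Over the summed counts the VWF group stood at 18.3 times the control group, with an exact 95% interval of 10.5 to 34.8 that covers counting error only.

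Between 3.5 h and 16 h Il12b fell by 7.25 on the log2 scale with VWF (SE 0.47, adjusted p = 1.64e-07) and by 1.98 with LPS (SE 0.60, adjusted p = 0.0184). The fall was larger with VWF than with LPS (log2 difference of the changes -5.29, SE 0.77, adjusted p = 2.16e-05). The LPS fall was a weaker call than the others: it lost significance without LPS replicate 2 at 16 h (adjusted p = 0.0545) and in the fit with no filter (adjusted p = 0.0672).

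**Figure D1:**
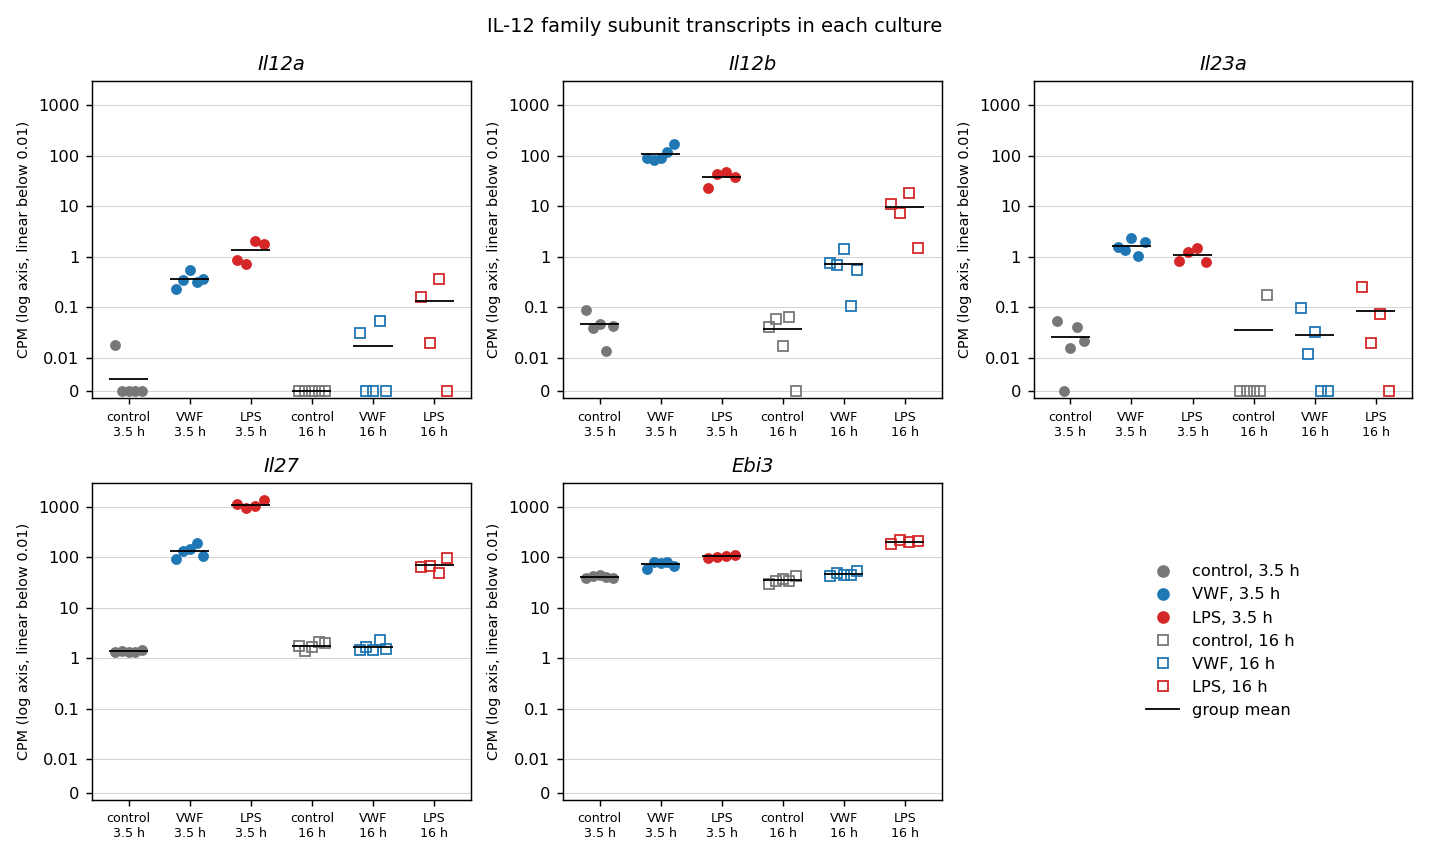
Level of each subunit gene in CPM (log axis, linear below 0.01 so that 0 can be shown) in every culture, with 1 point per culture and a bar at the group mean; filled circles are 3.5 h and open squares 16 h. Il12b is highest with VWF at 3.5 h, Il27 and Il12a are highest with LPS at 3.5 h, and Ebi3 alone is highest with LPS at 16 h.

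The 250 bases before the annotated start of Il12b are shown because this gene went from a near-zero level to the largest fold in the family. They were taken from RefSeq on GRCm38.p6, chr11:44399813-44400062, plus strand, written 5′ to 3′.
Il12b: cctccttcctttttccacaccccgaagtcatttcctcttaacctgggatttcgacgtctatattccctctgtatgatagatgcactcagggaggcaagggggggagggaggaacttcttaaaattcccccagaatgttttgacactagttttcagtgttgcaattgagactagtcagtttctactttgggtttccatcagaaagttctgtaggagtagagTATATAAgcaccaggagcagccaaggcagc
The capitals mark the TATA box letters TATANAA, whose match starts 30 bases before the start and which 10.4% of 32851 promoter windows of this length hold on either strand. No match was found in this window for AP-1 (TGANTCA), the interferon-stimulated response element, the STAT element (TTCNNNGAA), C/EBP (TTGCNNAA) or the NF-κB consensus, which says only that these letters are not in these bases.

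Il12a, which encodes p35 and is the chain that makes IL-12 specific (chr3:68690644-68698547, plus strand), was the scarcest subunit with VWF at 3.5 h, in TPM (0.589 on average against 2.04 for Il23a), whereas Il23a was scarcer with LPS (0.997 against 1.59). It had 1 count in all 5 control cultures together at 3.5 h, in replicate 1. It stood at 0.231, 0.346, 0.554, 0.313 and 0.368 CPM with VWF, from 13 to 29 counts each, and at 0.872, 0.724, 2.00 and 1.76 CPM with LPS, from 30 to 77 counts each. Every LPS culture was above every VWF culture, the reverse of the order seen for its partner Il12b.

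No culture reached 10 TPM for Il12a, so it was tested among the genes kept by filterByExpr. The log2 fold change at 3.5 h was 6.11 with VWF (SE 0.65, adjusted p = 9.06e-06) and 7.92 with LPS (SE 0.69, adjusted p = 1.03e-06). These sizes rest on 1 control count: the summed counts gave a ratio of 107 with an exact 95% counting interval of 18.8 to 4283 for VWF, and of 391 with an interval of 69.5 to 15534 for LPS. Without control replicate 1 the log2 values were 7.44 and 9.12, and both were still called. No control count was left in those fits, so these sizes could not be estimated. The direct comparison does not use the controls and placed VWF below LPS (log2 fold change -1.91, SE 0.39, adjusted p = 0.00234).

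At 16 h Il12a had 0 counts in all 5 controls, 5 counts over the VWF cultures (0.0314, 0, 0, 0.0532 and 0 CPM) and 23 counts over the LPS cultures (0.156, 0.0192, 0.360 and 0 CPM). With the control group set at the floor of 3 counts, the LPS group stood 14.2-fold and the VWF group 1.71-fold above it. These values take the treated counts as exact, so they are not lower bounds. Of the 23 LPS counts, 15 came from replicate 3, and the 5 VWF counts came from replicates 1 and 4. Both treated groups overlapped the controls because each had a culture at 0. From 3.5 h to 16 h the gene fell by 4.38 on the log2 scale with VWF (SE 0.69, adjusted p = 0.000165) and by 3.32 with LPS (SE 0.87, adjusted p = 0.00927). The difference between these falls was -0.96 (SE 1.09, adjusted p = 0.513) and was not resolved at this depth.

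Il23a, which encodes p19 of IL-23 (chr10:128296139-128298752, minus strand), rose to a similar low level with both agents at 3.5 h. Controls stood at 0.0528, 0, 0.0153, 0.0402 and 0.0209 CPM, VWF cultures at 1.55, 1.32, 2.29, 1.03 and 1.96 CPM (1.63 ± 0.501, n = 5), and LPS cultures at 0.820, 1.25, 1.51 and 0.786 CPM (1.09 ± 0.349, n = 4). Treated cultures did not overlap the controls, and the VWF and LPS cultures overlapped each other.

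Among filterByExpr genes the Il23a log2 fold change was 5.90 with VWF (SE 0.45, adjusted p = 5.41e-07) and 5.33 with LPS (SE 0.51, adjusted p = 2.43e-06). The direct VWF to LPS difference was 0.54 (SE 0.30, adjusted p = 0.167) and ranged from 0.38 to 0.75 when single cultures were left out. At 16 h the gene was back near the floor: VWF cultures had 0.0943, 0.0118, 0.0318, 0 and 0 CPM and LPS cultures 0.245, 0.0192, 0.0719 and 0 CPM. The 5 controls had 0, 0, 0, 0 and 0.174 CPM, where the last value is 9 counts in replicate 5, the control culture with low macrophage markers. It fell over time with VWF (log2 fold change -5.79, SE 0.60, adjusted p = 5.08e-06) and with LPS (log2 fold change -3.66, SE 0.77, adjusted p = 0.00299).

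Il27, which encodes p28 (chr7:126589010-126594941, minus strand), was the most abundant subunit transcript after LPS at 3.5 h. It stood at 1.32, 1.42, 1.35, 1.31 and 1.44 CPM in controls, at 92.7, 133, 146, 196 and 105 CPM with VWF (135 ± 40.3, n = 5), and at 1121, 957, 1019 and 1346 CPM with LPS (1111 ± 171, n = 4). The lowest LPS culture was far above the highest VWF culture, so Il27 and Il12b were ordered in opposite ways by the 2 agents.

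The log2 fold change of Il27 at 3.5 h was 6.65 with VWF (SE 0.22, adjusted p = 2.69e-09) and 9.69 with LPS (SE 0.15, adjusted p = 7.48e-12). VWF stood below LPS (log2 fold change -3.02, SE 0.21, adjusted p = 1.51e-06). At 16 h Il27 was at 1.77, 1.38, 1.64, 2.10 and 1.99 CPM in controls, at 1.45, 1.70, 1.46, 2.33 and 1.5 CPM with VWF, and at 64.5, 67.8, 49.8 and 94.9 CPM with LPS. VWF cultures overlapped the controls, with a log2 fold change of -0.02 (SE 0.20, adjusted p = 0.963, filterByExpr genes), whereas LPS held the gene 5.33 above control (SE 0.23, adjusted p = 1.02e-07). From 3.5 h to 16 h it fell by 6.31 on the log2 scale with VWF (SE 0.25) and by 3.98 with LPS (SE 0.22), and the VWF fall was the larger (log2 difference -2.35, SE 0.31, adjusted p = 6.69e-06). Exons of Apobr on the other strand cover 10.1% of the exon length of Il27, and the strand setting of the counting is not given. Apobr had medians of 96.0, 141 and 149 CPM in control, VWF and LPS cultures at 3.5 h.

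Ebi3, the beta chain of IL-27 and IL-35 (chr17:55952640-55957022, plus strand), was the only subunit gene with a sizeable level in controls, and it changed least at 3.5 h. At 3.5 h it stood at 38.7, 43.4, 43.9, 41 and 38.8 CPM in controls, at 58.5, 82.1, 76.0, 80.8 and 68.1 CPM with VWF (73.1 ± 9.85, n = 5), and at 97.2, 104, 105 and 110 CPM with LPS (104 ± 5.43, n = 4). The 3 sets did not overlap in CPM. In TPM, which are not corrected by TMM, the VWF cultures (160 to 194 TPM) and the LPS cultures (170 to 197 TPM) overlapped.

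The Ebi3 log2 fold change at 3.5 h was 0.86 with VWF (SE 0.10, adjusted p = 1.89e-05), which passed the p threshold and not the fold threshold of 1, and 1.36 with LPS (SE 0.08, adjusted p = 5.02e-08). VWF against LPS gave -0.49 (SE 0.10, adjusted p = 0.00271), also under the fold threshold. With scaling to library size these values were 0.63, 0.84 and -0.20, so the LPS call was lost and the difference between the agents had an adjusted p of 0.0661. That scaling moved the median of all genes tested by LPS from -0.02 to -0.54.

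At 16 h Ebi3 went its own way. Controls stood at 30.3, 33.9, 37.4, 34.4 and 41.8 CPM, VWF cultures at 41.8, 48.8, 45.2, 43.8 and 53.1 CPM, and LPS cultures at 187, 222, 198 and 211 CPM (204 ± 15.2, n = 4), the highest Ebi3 levels of the series. The lowest VWF culture met the highest control, replicate 5, and all LPS cultures were far above both. The log2 fold change was 0.38 with VWF (SE 0.10, adjusted p = 0.0142), and 0.44 without control replicate 5 (adjusted p = 0.00226). It was 2.56 with LPS (SE 0.11, adjusted p = 1.12e-07).

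Ebi3 rose from 3.5 h to 16 h with LPS by 1.00 (SE 0.08, adjusted p = 1.18e-05), while the other 4 subunit genes fell. This value sits at the fold threshold and was under it in each of the other normalizations, filters and models tried, which gave 0.94 to 1.00. With VWF it fell by 0.64 on the log2 scale (SE 0.11, adjusted p = 0.000237), under the fold threshold. The 2 time courses differed by -1.66 (SE 0.14, adjusted p = 2.78e-08). The antisense gene Gm16712 covers 23.4% of the exon length of Ebi3, and its highest level in any culture was 8.90 CPM, well under that of Ebi3.

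The 250-base window before the start of Ebi3 in RefSeq on GRCm38.p6, chr17:55952373-55952622, plus strand, is shown to set beside that of Il12b, since Ebi3 was the gene with a steady level in controls.
Ebi3: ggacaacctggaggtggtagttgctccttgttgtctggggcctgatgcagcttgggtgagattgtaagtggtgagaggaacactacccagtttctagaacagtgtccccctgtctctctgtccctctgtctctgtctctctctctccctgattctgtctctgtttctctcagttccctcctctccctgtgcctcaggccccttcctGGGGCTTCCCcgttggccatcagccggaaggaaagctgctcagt
The capitals mark a match to the NF-κB consensus that starts 44 bases before the start, and 3.90% of the promoter windows hold such a match on either strand. The TATA letters that Il12b holds are not in this window, nor are the AP-1, interferon, STAT and C/EBP letters. Promoter windows of Il12a were searched in the same way without a match, and Il23a and Il27 are named only.

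**Figure D2:**
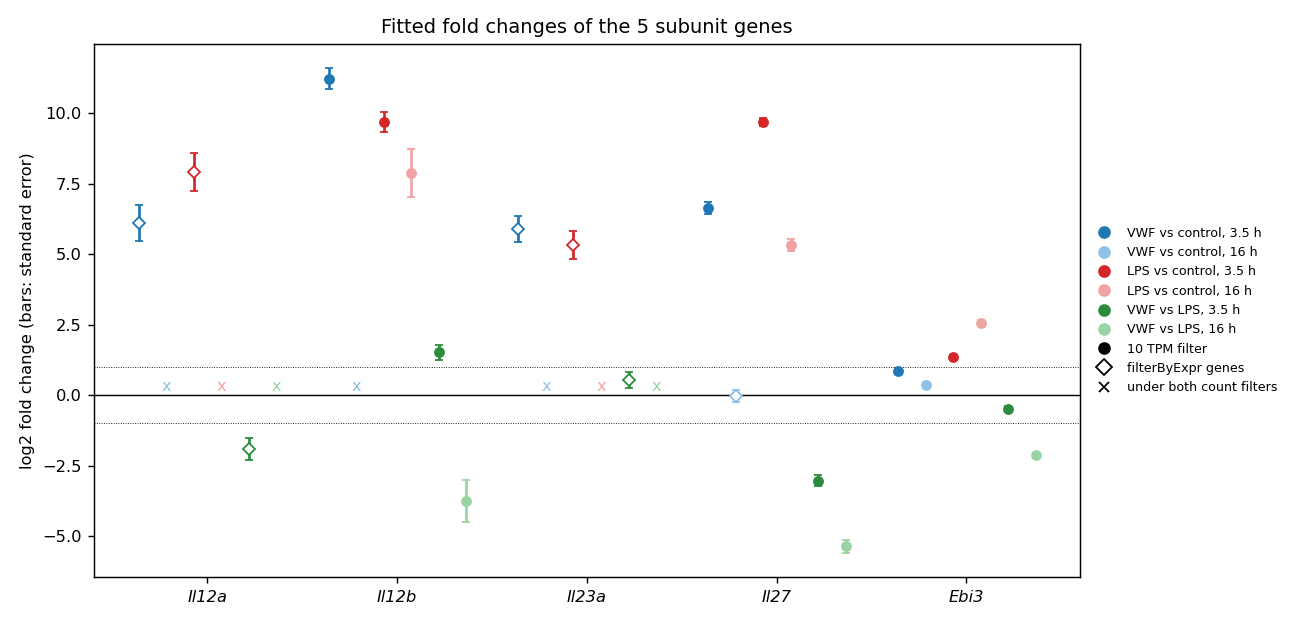
Fitted log2 fold change (vertical axis) of the 5 subunit genes (horizontal axis) in the 6 treatment comparisons, with standard errors as bars; filled circles come from the fit on genes at 10 TPM, open diamonds from the fit on filterByExpr genes, a cross marks a gene under both filters, and dotted lines mark the fold threshold of 1. VWF stands above LPS at 3.5 h for Il12b (1.53) and below it for Il27 (-3.02) and Il12a (-1.91).

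Counted over the family, 2 of the 5 genes were called higher with VWF at 3.5 h by the main test (Il12b and Il27), where 14.7% of the 8200 genes tested were called in either direction and 9.18% as higher. Il12a and Il23a joined them among filterByExpr genes, of which 14.8% were called. LPS at 3.5 h called 3 as higher (Il12b, Il27 and Ebi3), against 24.5% of all genes called and 12.8% called as higher, and, among filterByExpr genes, all 5 (27.5%). Il12b and Il27 passed the 10 TPM filter only through treated cultures, so their large differences from control follow in part from that filter, whereas Ebi3 passed it in every group. Over the 5 controls at 3.5 h, Il12a had 1 count and Il23a had 8. Both passed filterByExpr only through treated cultures, so the same limit holds for them. Every VWF culture was above every control at 3.5 h for all 5 genes, as were 13.6% of filterByExpr genes, and every LPS culture was too (20.2%). At 16 h this held for Il12b with VWF (9.04%) and for Il12b, Il27 and Ebi3 with LPS (18.6%).

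In the direct comparison at 3.5 h, 1 gene was called higher with VWF (Il12b; 4.71% of all genes) and 1 lower (Il27; 6.71%), with 11.4% called in all, and Il12a was also lower among filterByExpr genes, where 12.7% were called. At 16 h, VWF against control called none of the 5, with 8.71% of all genes called. That comparison tested only Ebi3 at 10 TPM, whose unadjusted p was 0.00281, and DESeq2 also called none. LPS against control at 16 h called 3 as higher (Il12b, Il27 and Ebi3), where 27.6% of all genes were called and 15.3% as higher. The same 3 genes were called lower in VWF than in LPS cultures (25.5% of all genes called, 14.5% as lower). Over time, VWF cultures had 2 called lower (Il12b and Il27; 21.4% of all genes called, 12.2% as lower). LPS cultures had 2 lower (Il12b and Il27) and 1 higher (Ebi3), with 28.1% of all genes called, 13.5% as lower and 14.6% as higher. Among filterByExpr genes Il12a and Il23a were also lower over time with VWF (24.4% called) and with LPS (29.9%). In VWF against LPS at 16 h, Il12b and Il27 passed the filter only through LPS cultures. The genes called lower over time with VWF passed theirs only through 3.5 h cultures, as did Il12a and Il23a with LPS. These calls follow in part from the filters. Control cultures had none of the 5 called over time. Only Ebi3 was tested there at 10 TPM (9.11% of all genes called), with an unadjusted p of 0.0644, and only Ebi3 and Il27 among filterByExpr genes (10.8% called), with unadjusted p of 0.0472 and 0.0778.

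The change of the treatment effect between the times was tested as an interaction. The VWF effect shrank for Il12b (log2 difference -7.11, SE 1.34, adjusted p = 0.000318) and for Il27 (log2 difference -6.70, SE 0.27, adjusted p = 1.21e-12), and 13.5% of all genes were called. Among filterByExpr genes, where 13% were called, the VWF effect also shrank for Il23a (-5.91, SE 1.53, adjusted p = 0.00629), but all 9 control counts at 16 h came from replicate 5, and without that culture the value could not be estimated (-2.01, SE 4.49, adjusted p = 0.791). Il12b, Il27 and Il23a passed their filters there only through VWF cultures at 3.5 h, so the shrinking of their VWF effect follows in part from the filters. For Ebi3 it was -0.46 (SE 0.14, adjusted p = 0.0159), under the fold threshold. The LPS effect shrank for Il27 (-4.34, SE 0.25, adjusted p = 7.63e-10) and grew for Ebi3 (1.22, SE 0.13, adjusted p = 7.24e-07), with 26.3% of all genes called. For Il12b the change of the LPS effect was -1.81 (SE 1.17, adjusted p = 0.212). The 2 time courses differed for Il12b, Il27 and Ebi3, as given with each gene, and 25% of all genes were called there.

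Per-length levels were used to compare the transcripts of the 2 chains of each pair, since a longer transcript collects more reads. In TPM, Il12b was 138 to 401 times Il12a with VWF at 3.5 h (median 320) and 18.9 to 51.8 times Il12a with LPS (median 21.7), and the ranges did not overlap. Il12b was 44.1 to 129 times Il23a with VWF and 31.7 to 56.0 times Il23a with LPS, with overlap. In the groups where a partner was at 0 in a culture, no ratio was formed.

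For IL-27, the more abundant transcript of the pair switched with treatment and time. In controls at 3.5 h Il27 was 0.0347 to 0.0419 times Ebi3 in TPM, so nearly all of the RNA of the pair was Ebi3. With VWF it was 1.75 to 2.74 times Ebi3 and with LPS 10.4 to 13.8 times Ebi3. At 16 h the ratio was 0.0458 to 0.0691 in controls, 0.0319 to 0.0599 with VWF and 0.285 to 0.508 with LPS, so Ebi3 was again the more abundant transcript in every culture. Ebi3 was also 202 to 380 times Il12a with VWF and 77.2 to 211 times Il12a with LPS at 3.5 h, the 2 chains of IL-35.

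**Figure D3:**
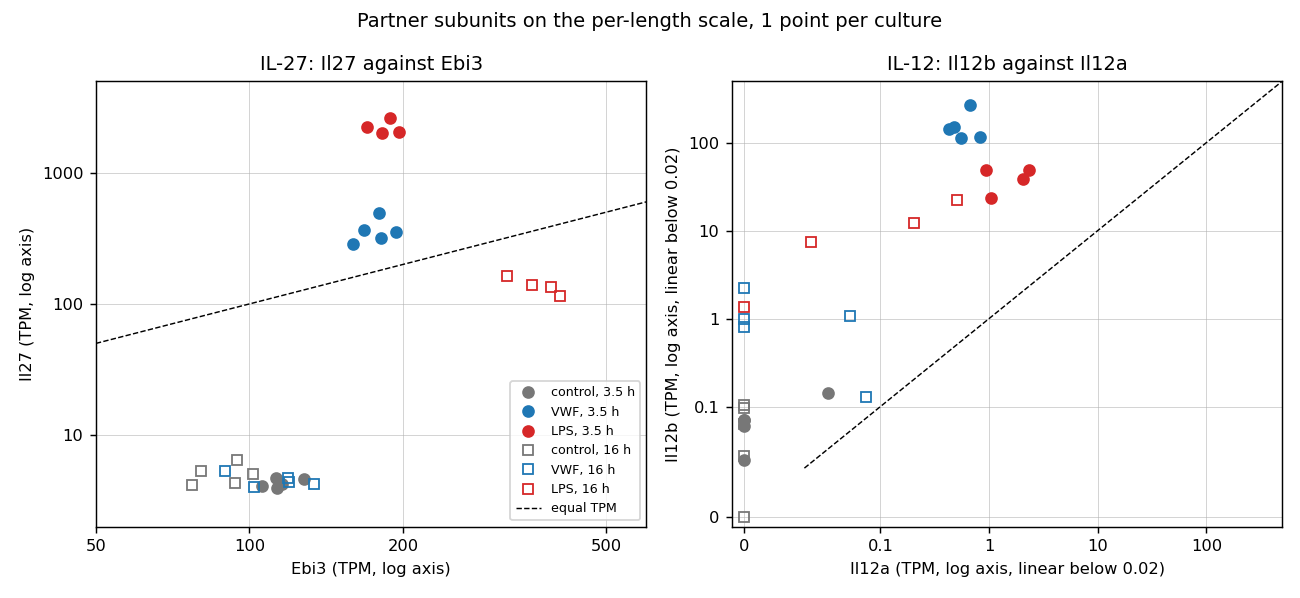
Transcripts of partner chains in TPM with 1 point per culture: Il27 against Ebi3 (both axes log) and Il12b against Il12a (log axes, linear below 0.02), with a dashed line at equal TPM. VWF and LPS cultures at 3.5 h sit above the line for Il27 and Ebi3 and all others sit under it, and VWF cultures at 3.5 h lie higher and further left than LPS cultures for Il12b and Il12a.

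Ordered by mean CPM, Il12b ran VWF 3.5 h, LPS 3.5 h, LPS 16 h, VWF 16 h and then the controls, and only the 2 control groups overlapped as neighbours. Il27 ran LPS 3.5 h, VWF 3.5 h, LPS 16 h, control 16 h, VWF 16 h and control 3.5 h, where VWF at 3.5 h and LPS at 16 h overlapped in 1 VWF culture (92.7 CPM) and 1 LPS culture (94.9 CPM), and the 16 h control and VWF groups overlapped. Ebi3 ran LPS 16 h, LPS 3.5 h, VWF 3.5 h, VWF 16 h and the controls, with overlap from VWF 16 h downward. Il12a and Il23a were separated only at the top of their order: LPS from VWF at 3.5 h for Il12a, and both 3.5 h treatments from everything else for Il23a.

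The 3′ untranslated region (UTR) of each gene was searched for the AU-rich heptamer TATTTAT, a core of the sites that decay factors such as tristetraprolin (Zfp36) bind in short-lived cytokine mRNAs. Il12a held 5 in 497 bases, Il23a 5 in 657 bases, Il27 4 in 285 bases, Il12b 1 in 774 bases, and Ebi3 none in 245 bases. Of 21018 genes with an annotated 3′ UTR, 25.5% held at least 1. Among genes with a 3′ UTR of similar length the share was 13.1% for Il12a, 17.7% for Il23a, 7.05% for Il27, 19.7% for Il12b and 6.90% for Ebi3. The gene without the heptamer, Ebi3, was also the gene that did not fall with LPS between the times. With VWF all 5 genes fell. Ebi3 fell least there (log2 fold change -0.64), and Il12b, with 1 heptamer, fell most. The motif was chosen after the levels had been seen, and 5 genes do not test a relation. Overlapping matches were counted, and the Il23a and Il27 stretches below each hold another heptamer that is not marked. A site of each gene that has any is shown with 1 heptamer in capitals, read 5′ to 3′ from the GENCODE M21 transcripts.
Il12a: atttaaaaaTATTTATtgctatatt
Il12b: taatttatgTATTTATtaatttatt
Il23a: gatgatggtTATTTATtctatttat
Il27: tttcttggaTATTTATttattttta

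**Figure D4:**
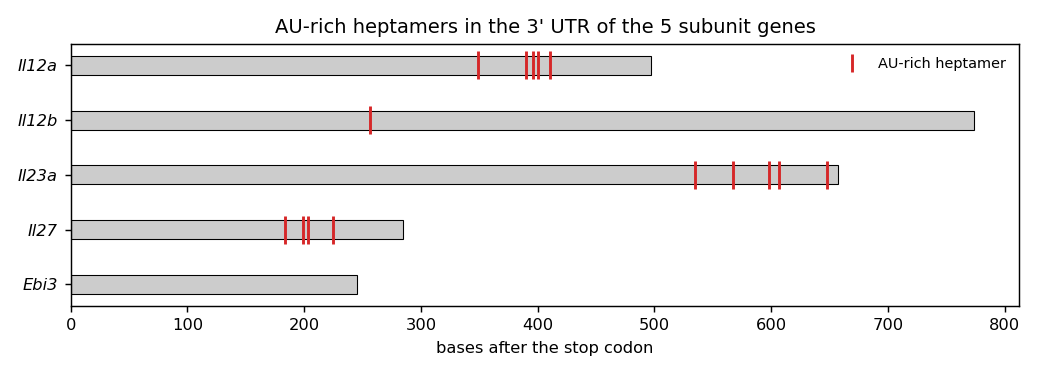
Length of the 3′ UTR of each subunit gene (grey bars, bases after the stop codon) with the position of each AU-rich heptamer (red ticks). Il12a, Il23a and Il27 carry 5, 5 and 4 of them, Il12b carries 1 and Ebi3 none.

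The receptor and signalling genes of the family were read from a list of 10. IL-12 and IL-23 share the receptor chain Il12rb1, IL-27 signals through Il27ra and Il6st, and the kinases Jak1, Jak2 and Tyk2 act on STAT factors such as Stat3 and Stat4. At 3.5 h, 2 of the 5 genes that could be tested were called higher with VWF and none lower: Jak2 (3.17, SE 0.16) and Stat3 (1.10, SE 0.07), both log2 fold changes. The same 2 genes were called higher with LPS (3.48 and 1.92). Of all genes tested, 9.18% were called higher with VWF and 12.8% with LPS. The median of the 5 was 0.92 with VWF and 0.44 with LPS, against 0.00 and -0.02 over all genes tested.

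The receptor chain Il12rb1 reached 10 TPM only in LPS replicate 3 at 16 h (11.3 TPM), so it was tested only in comparisons with that group. The other LPS cultures at 16 h had 9.50, 9.73 and 5.23 TPM. Il12rb1 stood at 17.7, 19.7, 19.5 and 12.3 CPM in the 4 LPS cultures at 16 h and at most at 1.01 CPM in any other culture. Its log2 fold change over control was 4.93 (SE 0.34, adjusted p = 2.05e-06). Il23r, the second chain of the IL-23 receptor, stayed under 10 TPM. It had 2.67 to 3.08 CPM with LPS at 16 h, 0.111 to 0.252 CPM with VWF at 16 h, and 0 counts in all controls at 3.5 h, and it is named here after its values were seen. At 16 h, 4 of 6 tested genes of this list were called higher with LPS (median 1.96), against 15.3% of all genes. With VWF the median of 5 tested genes was 0.08 at 16 h. Direct comparison at 16 h called 4 of 5 lower in VWF than in LPS cultures, against 14.5% of all genes: Il12rb1 (-4.98), Jak2 (-2.30), Stat3 (-2.12) and Tyk2 (-1.49). Il12rb1 passed the 10 TPM filter only through LPS replicate 3, so its calls in both comparisons follow in part from that filter.

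Of 14 transcription factors known to act on subunit genes, 8 of 13 tested were called higher with VWF at 3.5 h and none lower (median 1.37; 9.18% of all genes higher). With LPS 10 of 14 were called higher and 1 lower (median 1.97; 12.8% of all genes higher). The largest with VWF were Nfkbiz (4.69), the IκBζ cofactor of NF-κB, Batf (3.93) and Irf1 (3.01). The largest with LPS were Irf1 (5.06), Nfkbiz (4.47) and Batf (4.00), and Runx1 was lower (-1.24). VWF against LPS called 5 lower (6.71% of all genes), led by Irf8 (-3.26, SE 0.16, adjusted p = 1.73e-07), Batf3 (-2.67) and Irf1 (-2.03), and 1 higher, Runx1 (1.26). Batf3 averaged 1.51 CPM with VWF and 9.71 CPM with LPS at 3.5 h. It passed the 10 TPM filter there only through LPS cultures, so its call against VWF follows in part from that filter.

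Irf8 is a factor known to act on the promoters of Il12b, Il12a and Il27. It stood at 119, 133, 162, 182 and 180 CPM in the controls at 3.5 h, at 82.6, 95.2, 99.5, 121 and 118 CPM with VWF, and at 761, 1009, 1041 and 1220 CPM with LPS. VWF cultures overlapped the controls only at the bottom of the control range (log2 fold change -0.56, SE 0.14, adjusted p = 0.00735, under the fold threshold), and every LPS culture was above both (2.72, SE 0.16). Il12b was higher with VWF than with LPS in the same cultures, while Il12a and Il27 were lower.

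At 16 h VWF left 1 factor higher, Irf7 (4.57, SE 0.31), and 1 lower, Rel (-1.05, SE 0.12), of 14 tested, with a list median of 0.09. Of all 7798 genes tested in that comparison, 355 were called higher and 324 lower. LPS left 7 higher and none lower (median 1.01; 15.3% of all genes higher), among them Irf7 (6.80), Batf (3.74) and Irf1 (3.21). In the direct comparison none was higher and 8 were lower with VWF (14.5% of all genes lower).

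Of 10 genes that repress subunit genes or speed the decay of their mRNA, 7 were called higher with VWF at 3.5 h and none lower (median 1.51; 9.18% of all genes higher), led by Socs3 (7.33), Socs1 (6.04), both feedback inhibitors of cytokine receptor signalling, and Il10 (3.80). With LPS 7 were called higher, led by Socs1 (8.63), Socs3 (7.89) and Il10 (6.47), and 1 lower, Bcl6 (-1.06), with a median of 2.26 and 12.8% of all genes called higher. VWF against LPS called 4 lower (6.71% of all genes), Il10 (-2.66), Socs1 (-2.58), Nfil3 (-1.74) and Zfp36 (-1.08). At 16 h VWF had 2 higher (Socs3, 2.65, and Zc3h12a, 1.41) and 2 lower (Nfil3, -1.99, and Atf3, -1.35) of 8 tested, where 355 of all 7798 genes were called higher and 324 lower. LPS had 8 higher of 10 at 16 h (15.3% of all genes), and 9 of 10 were lower with VWF than with LPS (14.5%).

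**Figure D5:**
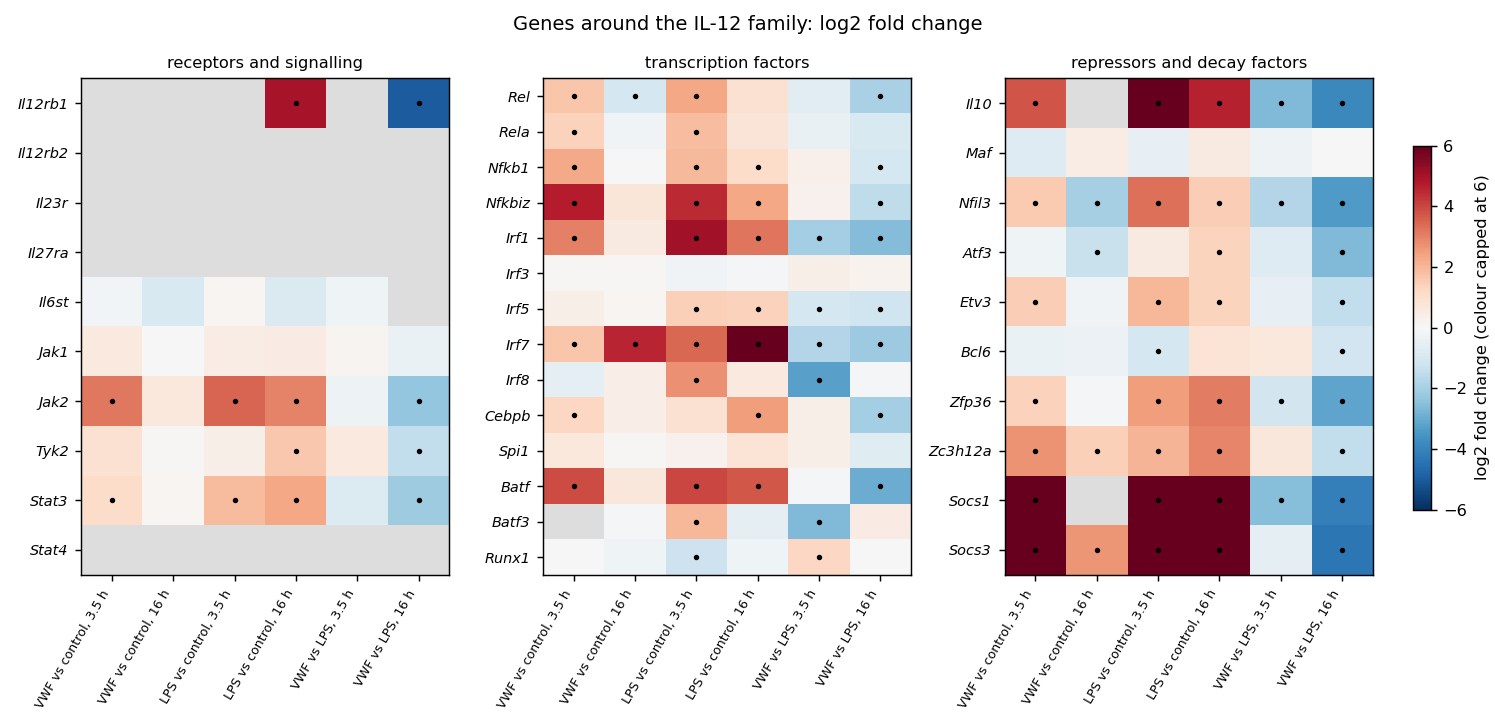
Log2 fold change (colour, capped at 6) of the receptor and signalling genes, transcription factors, and repressors and decay factors in the 6 treatment comparisons (columns); a dot marks a called gene and grey a gene under 10 TPM. Irf8 is called higher with LPS at 3.5 h (2.72) and not with VWF, Il12rb1 could be tested only in the 2 comparisons shown that include LPS at 16 h, and 9 of 10 repressors are lower with VWF than with LPS at 16 h.

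The genes whose profiles over the 28 cultures lay nearest to each subunit gene were named by the root mean square difference of centred log2 CPM, as a description. Il12b lay nearest to Shisa3 (0.92), Socs3 (1.18) and Il1a (1.48), and Il27 nearest to Il33 (0.79), Ifi202b (0.81) and Socs1 (0.92). Il23a lay nearest to Tnfaip2 (0.77), Nfkbiz (0.80) and Tnfsf9 (0.87). Il12a lay nearest to Tagap (0.76), Ripk2 (0.79) and Stat5a (0.79), but a smaller prior count gave 3 other genes for it. Ebi3 lay nearest to Stxbp3 (0.22), Dnaja1 (0.23) and Stat3 (0.27). Within the family, Il12a and Il23a were the closest pair (1.08) and Il12b and Ebi3 the farthest (3.74). The distances of Il12a and Il23a are set partly by their low counts, and all 28 cultures share the same 6 groups.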

How the data were processed

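RNA was measured by bulk sequencing in 28 cultures. The authors mapped 150-base paired reads to GRCm38 (mm10) with STAR, and they deposited raw counts per gene, with no normalization. For annotation, strand setting and multiply mapped reads: not given in the sources used here. TPM was computed here with GENCODE M21 exon lengths.

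Comparisons were tested by quasi-likelihood in edgeR (edgeR 4.0.16, R 4.3.3) with TMM factors and robust dispersions, fitted on the groups compared, on genes at 10 TPM or more in at least 1 of their cultures. A call needed an adjusted p (Benjamini-Hochberg, over all genes tested) under 0.05 and an absolute log2 fold change over 1. There were 12 comparisons. The alternatives were DESeq2 1.42.0, median-of-ratios factors, library size scaling, filterByExpr, no filter, 1 fit on all 6 groups, the replicate number as a block, no fold threshold, and each culture left out. Genes under 10 TPM were tested in the filterByExpr fit, and the combinations of that filter with the other alternatives were added after seeing the data. The edgeR fit was tested on simulated counts with the filterByExpr filter, for VWF against control at 3.5 h and for the change of the VWF effect with time. Total counts ranged from 41131209 to 77699206, and intervals and floors cover counting error only. Where cultures come from is not labelled beyond a replicate number, so p-values measure the spread between cultures, which may be technical.

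The named genes were the 5 members, the called list genes with the largest changes (at most 3 in each direction per list and comparison), and the 3 nearest profiles. Members, lists and motifs were chosen with earlier results of these data known. Same-numbered cultures deviated together in all pairs for 1 pair of groups, the VWF and LPS cultures of 16 h (correlations of 0.16 to 0.781 over 4 pairs). Sequences are from RefSeq (GRCm38.p6 promoters, 3 of the 5 genes matched) and GENCODE M21 transcripts. No 2 cultures were duplicates: the lowest chi-square per degree of freedom over 52 pairs of the same group was 17.1. Markers of other cell types were also listed: summed levels of B cell, T and NK cell and neutrophil markers were at most 14.5, 1.70 and 11.1 CPM in any culture, and those of stromal markers at most 199 CPM. A gene of the receptor and signalling list is not reported here.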

Additional observations from a re-analysis of the deposited data

Results flagged for a closer look

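A control culture stood away from the other 4 of its group in 2 cases, by the size of its gap to the nearest culture against the whole range. The usual rate of about 1 in 20 groups by chance does not hold for these cases, since any count beside 4 cultures at 0 gives the full gap. Il12a had 0.0176 CPM in control replicate 1 at 3.5 h, which is 1 count, and 0 in the others. Il23a had 0.174 CPM in control replicate 5 at 16 h, which is 9 counts, and 0 in the others. Without that culture the change of the VWF effect on Il23a with time was -2.01 (SE 4.49, adjusted p = 0.791) in place of -5.91 (SE 1.53, adjusted p = 0.00629). No control count was left at 16 h in that fit, so the change could not be estimated.

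The effect of a treatment differed between the times, or the time course between the treatments, in edgeR's interaction test for these genes. The VWF effect was smaller at 16 h for Il12b (-7.11), Il23a (-5.91), Il27 (-6.70) and Ebi3 (-0.46, under the fold threshold). Il12b, Il23a and Il27 passed their filters there only through VWF cultures at 3.5 h, so their values follow in part from the filters. The LPS effect was smaller for Il27 (-4.34) and larger for Ebi3 (1.22). VWF cultures fell further than LPS cultures for Il12b (-5.29) and Il27 (-2.35). For Ebi3 the courses differed by -1.66, with higher levels at 16 h in LPS cultures and lower ones in VWF cultures. The interaction for Il12a could not be read, because all controls at 16 h were at 0 and its SE was 10.1 log2 units. All other values are given beside the genes above.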

How the results depend on the processing

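Of 936 alternative fold changes of the 5 genes, none changed the sign of a called value. At 10 TPM 14 of 604 lost the call, and on filterByExpr genes 1 of 332 lost it and 7 gained it. The number of members called moved with the filter: it was 4 in place of 2 with filterByExpr and with no filter for VWF against control at 3.5 h and for VWF at 16 h against 3.5 h, and 5 in place of 3 for the 3.5 h LPS effect. With VWF at 16 h against control it was 1 in place of 0 with no filter (Il12b) and 1 with no fold threshold (Ebi3). For LPS at 16 h against 3.5 h it ranged from 1 to 3 when a culture was left out, the lowest without LPS replicate 2 at 16 h. With library size scaling, the share of calls that were higher went from 52.1% to 24.7% in the 3.5 h LPS effect, from 55.3% to 26.0% in the 16 h LPS effect, from 62.4% to 48.8% in the 3.5 h VWF effect, from 41.2% to 68.8% and from 43.3% to 71.2% in VWF against LPS at the 2 times, from 40.5% to 51.8% in the change of the VWF effect with time, and from 42.8% to 56.6% between the time courses. Il23a gained a call for the change of the LPS effect with time in DESeq2 (-4.08, adjusted p = 0.0436) and in the fit on all groups, and without control replicate 5 at 16 h, which left no control count, the value was -0.04.

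With the replicate block, the number of all genes called was 0.916 to 1.03 times that without it over the 12 comparisons. For VWF against LPS at 16 h, where same-numbered cultures deviated together, it was 1943 against 1932. The block left the number of members called at 3 there and ended only the call of Ebi3 in LPS cultures over time (1.00, just under the threshold). In none of 15 pairs of groups did every culture correlate best with its own number. TPM ratios moved by less than their SD with the longest transcript as length. The 3 nearest profiles of Il12b and Il27 shared 1 gene with those found without the control cultures. Depth limits Il12a and Il23a at 16 h, where no group exceeded 23 counts in all.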
